A study of Homo sapiens with 6 samples.

Results

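Expression of 9 genes that mark megakaryocytes and platelets was followed across 6 arrays: TUBB1, CD36, ITGA2B, ITGB3, GP9, GP1BA, GP6, PF4 and PPBP. All probe sets carrying one of these 9 symbols in the array's gene table were taken, which gave 21 of the 49293 probe sets that are not controls. By the labels the RNA on every array came from NCI-H929, an established line grown from human multiple myeloma. On 3 arrays (PRMT5_down) it was from cells given a lentivirus directed against the arginine methyltransferase PRMT5, called a sponge in the titles and a short hairpin RNA in the protocol, and in 3 (control) a control lentivirus. Per the labels' protocols the transduced cells were selected with puromycin, and both kinds of cells were collected at the same time; the protocol text calls the comparison cells normal, while the titles name a control sponge. Nothing in the labels says that replicates 1, 2 and 3 came from separate cultures, so p-values cover no more than array-to-array spread, possibly technical. The genes were chosen by their PRMT5_down minus control differences within each replicate number, led by those of TUBB1 and CD36, so these differences are described here without a test.

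Megakaryocytes are the bone marrow cells that shed platelets. They share a progenitor and several transcription factors with red cell precursors, and late in their maturation they make large amounts of adhesion receptors, granule proteins and a tubulin of their own. ITGA2B and ITGB3 encode the 2 chains of the platelet fibrinogen receptor, GP1BA and GP9 belong to the receptor for von Willebrand factor, GP6 binds collagen, CD36 is a scavenger receptor for fatty acids and thrombospondin, TUBB1 is the beta tubulin of the platelet marginal band, and PF4 and PPBP are chemokines stored in alpha granules. CD36 is also found on red cell precursors, monocytes, adipocytes and endothelium. A myeloma line is of plasma cell origin, so these genes lie outside its expected lineage.

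The unit throughout is the log2 signal of a probe set, and a level is read only against background, since different probe sets do not share a scale. Background was set on each array at the 95th percentile of 330 olfactory receptor genes and lay between 4.90 and 5.02. The array medians lay between 5.29 and 5.31. The targeted gene PRMT5 was lower in all 3 numbers, with control arrays 1 to 3 at 9.93, 10.35 and 10.30 and PRMT5_down arrays 1 to 3 at 8.63, 9.65 and 9.37. Its mean difference was -0.98 (SE 0.28), and PRMT5 too did not reach an adjusted p under 0.05 in limma. The plasma cell markers IRF4, CD38, MZB1 and POU2AF1 were not above background on any array, and 6 of 14 measured plasma cell markers were above it on all 6. Of these 6, XBP1, which other secretory cells also use, had a mean of 10.43, and SDC1, FCRL5, FKBP11, PRDM1 and DERL3 had means of 5.23 to 6.12, nearer to background. The labelled plasma cell origin of the line is thus matched by part of its markers only, and not by IRF4, CD38, MZB1 or POU2AF1. Of 13 measured erythroid markers, 12 were above background on all 6 arrays. The globin genes HBE1 (mean 13.43) and HBZ (11.42) and the erythroid enzyme gene ALAS2 (10.18) were far above it on every array, as were GATA1 (10.19) and NFE2 (9.95). By these markers the arrays look more erythroid than plasma cell, and the identity of the cells was not tested. In cultured cells read in bulk, fewer cells carrying a gene and less of its RNA per cell cannot be told apart.

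Of the 21 probe sets, 8 were above background on all 6 arrays, 3 on some and 10 on none. The 8 belonged to 5 genes, TUBB1, CD36, ITGA2B, GP6 and GP9. No probe set of ITGB3, PF4 or PPBP rose above background on any array. The label of megakaryocyte and platelet genes is thus borne out by some of these genes only: one chain of the fibrinogen receptor had signal and the other did not. With the olfactory receptor median plus 1 as background 11 probe sets were above it on all 6 arrays, and with the 99th percentile 1 was.

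**Figure D1:**
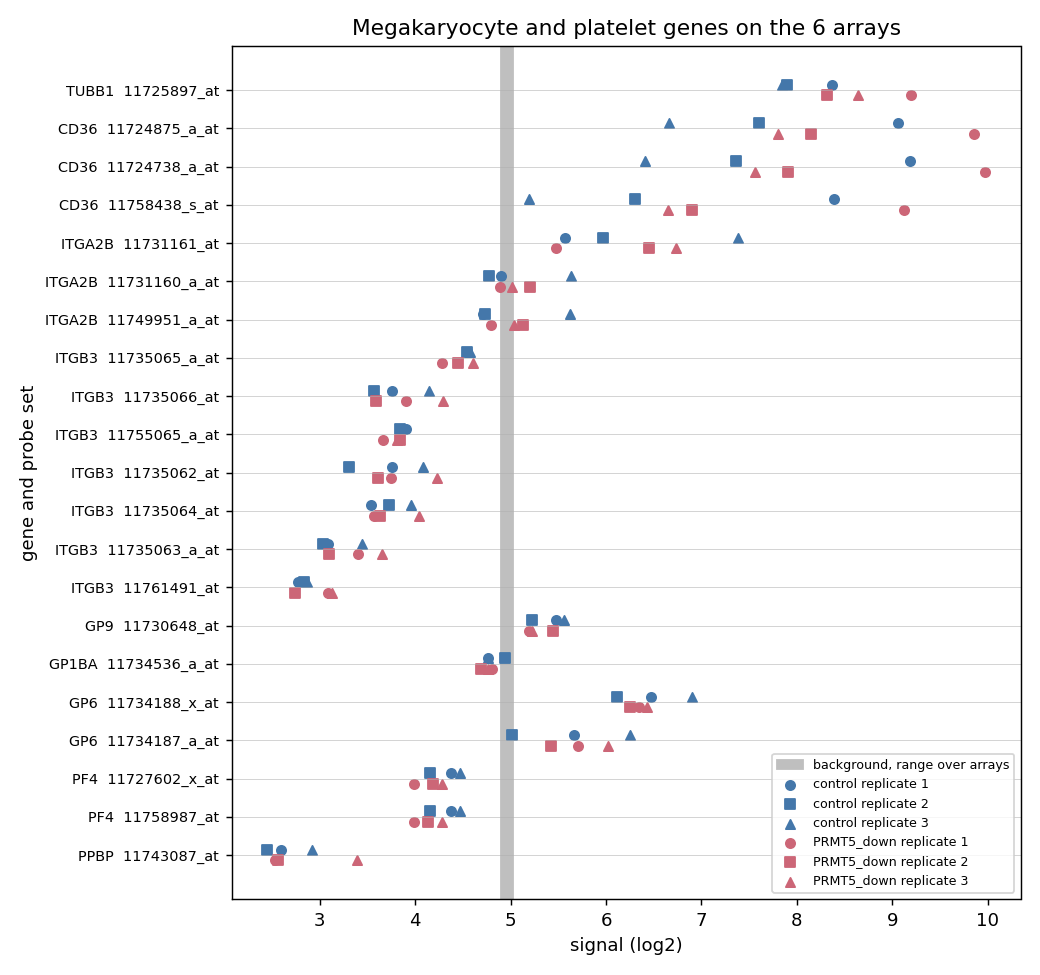
Signal (log2, horizontal axis) of the 21 probe sets on the 6 arrays, one row per probe set; color gives the group, marker shape the replicate number, and the grey band the background of 4.90 to 5.02. TUBB1 and CD36 lie to the right of the band on every array, while the ITGB3, PF4 and PPBP points lie to its left.

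The stretches just before the transcription starts of 3 of the genes are shown because the results turn on these genes: TUBB1 and CD36 were higher in PRMT5_down within each replicate number, and ITGA2B was not. They are the 250 bases before the start in the RefSeq promoter table (GRCh38.p14), written 5′ to 3′ on the gene's strand, with capitals for GATA motifs and ETS motifs on either strand. A GATA motif was the letters GATA with A or T before them and A or G after them, and an ETS motif the letters GGAAG with A or C before them. TUBB1 is on the plus strand at chr20:59019179-59019428, CD36 on the plus strand at chr7:80601957-80602206, and ITGA2B on the minus strand at chr17:44389650-44389899. The TUBB1 window lies inside the gene's annotated span, before a start within it, and the bases before that span were not searched.
TUBB1: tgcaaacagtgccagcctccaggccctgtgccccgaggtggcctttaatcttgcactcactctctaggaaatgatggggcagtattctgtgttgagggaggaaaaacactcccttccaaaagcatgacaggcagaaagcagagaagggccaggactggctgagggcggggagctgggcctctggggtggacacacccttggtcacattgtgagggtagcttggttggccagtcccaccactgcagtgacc
CD36: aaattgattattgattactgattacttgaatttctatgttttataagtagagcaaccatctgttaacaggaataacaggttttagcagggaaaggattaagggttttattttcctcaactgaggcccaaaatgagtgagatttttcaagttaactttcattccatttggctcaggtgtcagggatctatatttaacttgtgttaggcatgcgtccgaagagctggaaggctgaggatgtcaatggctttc
ITGA2B: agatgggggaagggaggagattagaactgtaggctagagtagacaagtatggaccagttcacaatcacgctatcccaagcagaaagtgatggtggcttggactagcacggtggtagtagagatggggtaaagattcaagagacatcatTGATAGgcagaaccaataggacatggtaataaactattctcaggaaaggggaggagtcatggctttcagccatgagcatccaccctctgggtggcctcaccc
The ITGA2B stretch holds the GATA motif TGATAG, starting 102 bases before the start, and no capitals appear in the other two, which says only that these letters are not in these windows. Promoter sequences were matched for 6 of the 9 genes, and that of GP9, like that of TUBB1, lies inside its gene's annotated span. A GATA motif was found in 3 of the 6 (ITGA2B, GP6 and PPBP), against 17.7% of 15842 protein-coding promoters of the same length, and an ETS motif in 3 of the 6 (GP9, GP6 and PPBP), against 44.6%. In PPBP the 2 motifs overlap. The core letters TGANTCA bound by NFE2 were found in 0 of the 6 and in 5.04% of all.

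TUBB1, the tubulin of the platelet marginal band, was above background on every array and higher in PRMT5_down within each number. Its one probe set (11725897_at) had control arrays 1 to 3 at 8.37, 7.90 and 7.84 and PRMT5_down arrays 1 to 3 at 9.20, 8.32 and 8.64. Every PRMT5_down array was above the control of its own number, but the groups overlapped, since control replicate 1 stood above PRMT5_down replicate 2. Control averaged 8.04 ± 0.29 and PRMT5_down 8.72 ± 0.45 (SD, n = 3 in either group), which differ by 0.68 on the log2 scale (SE 0.26). This SE is unpaired and holds the spread between numbers. Within numbers 1, 2 and 3 the difference was 0.83, 0.42 and 0.80, which is 1.78-fold, 1.34-fold and 1.74-fold. Among 18132 genes, each by its brightest probe set, TUBB1 ranked 20 from the top by mean difference. With 1 array left out in turn its difference lay between 0.44, without PRMT5_down replicate 1, and 0.88, without PRMT5_down replicate 2.

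CD36, the scavenger receptor, differed by more than TUBB1 but varied far more between replicate numbers. Its brightest probe set (11724875_a_at) had control arrays 1 to 3 at 9.06, 7.60 and 6.66 and PRMT5_down arrays 1 to 3 at 9.86, 8.15 and 7.80. Each PRMT5_down array exceeded the control of its number, yet control replicate 1 exceeded PRMT5_down replicates 2 and 3, so the groups overlapped. Control averaged 7.77 ± 1.21 and PRMT5_down 8.60 ± 1.10 (SD, n = 3 in either group), which differ by 0.83 on the log2 scale (SE 0.77). This SE is unpaired and holds the spread between numbers. Within numbers 1, 2 and 3 CD36 was higher 1.74-fold, 1.46-fold and 2.20-fold.

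The other CD36 probe sets read the same gene and are not independent of it. The probe set 11724738_a_at gave log2 differences of 0.78, 0.55 and 1.15 in numbers 1, 2 and 3, and 11758438_s_at, the dimmest, gave 0.73, 0.60 and 1.46. All 3 thus had their smallest difference in number 2 and their largest in number 3, with 1 array on each side and so no replicate check. By mean difference CD36 ranked 14 from the top of 18132 genes. The mean difference, taken without pairing the numbers, rests on which arrays are present. For the brightest probe set it was 0.20 without PRMT5_down replicate 1, 0.27 without control replicate 3 and 1.47 without control replicate 1. Array weights brought it to 0.34. The same pattern held for the other 2 probe sets, with 0.08 and 0.15 without PRMT5_down replicate 1 and 1.60 and 1.81 without control replicate 1.

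ITGA2B, the alpha chain of the fibrinogen receptor and a classical megakaryocyte marker, did not differ in one direction. Its brightest probe set (11731161_at) had control arrays 1 to 3 at 5.57, 5.97 and 7.38 and PRMT5_down arrays 1 to 3 at 5.48, 6.45 and 6.73. The replicate 3 arrays were the highest of both groups, and the groups overlapped. Control averaged 6.31 ± 0.95 and PRMT5_down 6.22 ± 0.66 (SD, n = 3 in either group), a difference of -0.09 (SE 0.54) made of -0.09, 0.48 and -0.65 in numbers 1, 2 and 3. The 2 dimmer probe sets, each above background on 3 arrays, differed by -0.07 (SE 0.24) and -0.03 (SE 0.27) and carried the same split, 0.43 and 0.40 in number 2 and -0.62 and -0.58 in number 3. The direction turned for each of the 3 probe sets without PRMT5_down replicate 1, without control replicate 3, and with array weights (0.32, 0.14 and 0.19).

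ITGB3, the beta chain that pairs with ITGA2B, had no signal to compare. Its 7 probe sets had means between 2.90 and 4.50, all under background on every array, and their differences lay between -0.11 and 0.20. The one with the highest difference, 11735063_a_at, had control arrays 1 to 3 at 3.09, 3.03 and 3.44 and PRMT5_down arrays 1 to 3 at 3.40, 3.10 and 3.65. Values under background are not read as a level of the transcript.

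GP6, the collagen receptor, was above background with both of its probe sets. The brighter, 11734188_x_at, had control arrays 1 to 3 at 6.47, 6.12 and 6.90 and PRMT5_down arrays 1 to 3 at 6.35, 6.25 and 6.43, a log2 difference of -0.15 (SE 0.20), and its suffix marks probes that can match other transcripts. The dimmer, 11734187_a_at, read 5.66, 5.01 and 6.25 in control and 5.71, 5.42 and 6.02 in PRMT5_down, a difference of 0.08 (SE 0.33). The 2 probe sets differed in sign, both groups overlapped, and in each the number 2 difference was positive (0.13 and 0.41) and the number 3 difference negative (-0.47 and -0.23). ITGA2B had the same signs in numbers 2 and 3.

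Of the von Willebrand factor receptor, GP9 lay just above background and GP1BA around it. GP9 had control arrays 1 to 3 at 5.48, 5.22 and 5.56 and PRMT5_down arrays 1 to 3 at 5.19, 5.44 and 5.22, a log2 difference of -0.14 (SE 0.13). GP1BA, the chain that binds the ligand, read 4.76, 4.94 and 4.76 in control and 4.80, 4.69 and 4.76 in PRMT5_down, a difference of -0.07 (SE 0.09), and rose above background on 1 array. Of their partners GP5 was under background on all 6 arrays, and GP1BB was not analysed here.

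The alpha granule chemokines PF4 and PPBP were under background. PF4 had 2 probe sets with nearly the same readings: 11727602_x_at had control arrays 1 to 3 at 4.37, 4.15 and 4.47 and PRMT5_down arrays 1 to 3 at 3.99, 4.19 and 4.28, a difference of -0.18 (SE 0.13), and the other gave -0.20 (SE 0.12). PF4 has a near-identical copy, PF4V1, with which probes could be shared. PPBP read 2.59, 2.45 and 2.92 in control and 2.53, 2.56 and 3.39 in PRMT5_down, a difference of 0.17 (SE 0.26), with the highest value in PRMT5_down replicate 3.

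**Figure D2:**
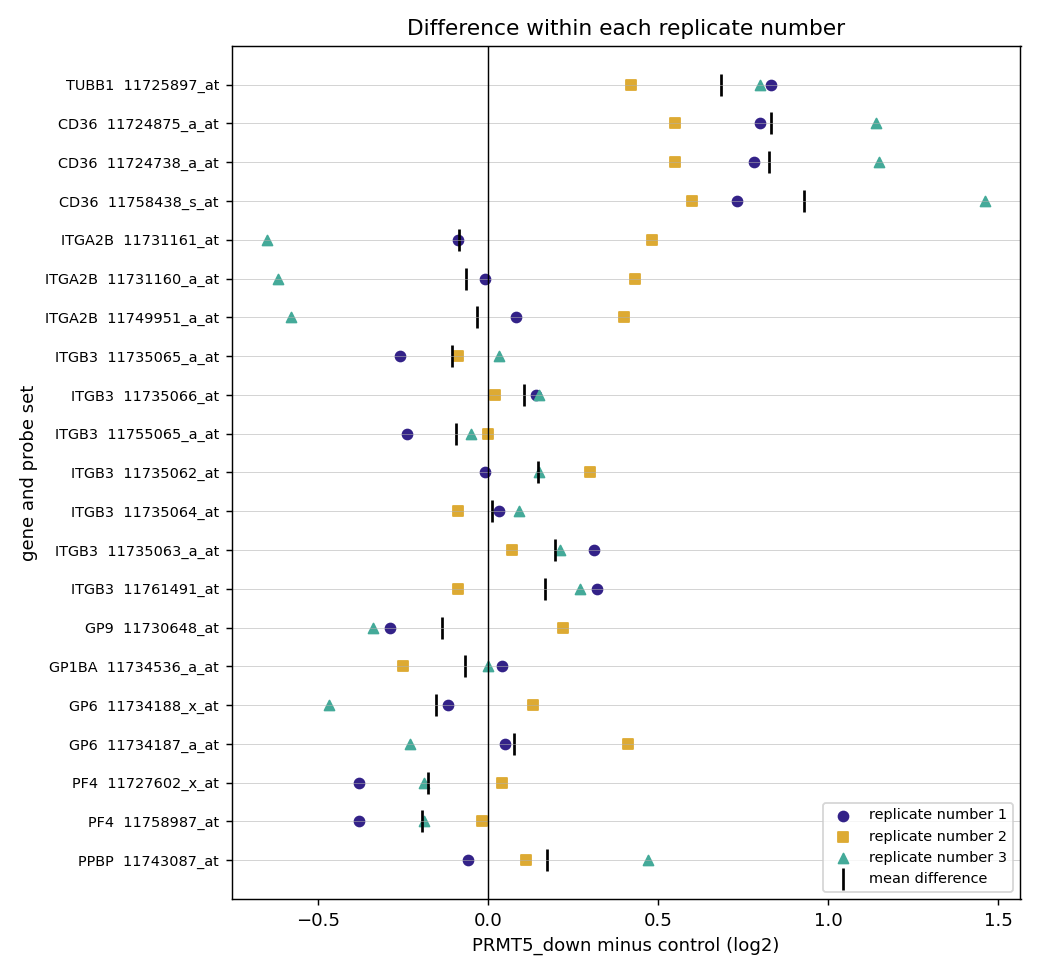
PRMT5_down minus control (log2, horizontal axis) within replicate numbers 1, 2 and 3 (marker shape and color) for each of the 21 probe sets, with a black bar at the mean difference. The TUBB1 and CD36 points all lie right of 0, from 0.42 to 1.46, while the ITGA2B and GP6 points fall on both sides.

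Set beside all probe sets, the counts are as follows, and nothing is read from them because this contrast chose the genes. In limma (adjusted p by Benjamini-Hochberg) 0 of 49293 probe sets (0%) passed an adjusted p under 0.05, none of the 21 among them, and 466 (0.945%) had an unadjusted p under 0.05, or 4221 with the replicate number as a block. With that block limma also called 0. By the brightest probe set of each gene, without the block, limma called 0 of 18132 genes (0%). A count of 0 for any list below follows from this and says nothing about that list. The 2 groups did not overlap for 0 of the 21 probe sets, against 3.93% of all. The difference was positive in every number for 6 of the 21 (TUBB1, the 3 of CD36 and 2 of ITGB3), against 12.5% of all, and negative in every number for 1 (PF4), against 14.3%. A difference of at least 0.4 in every number, a value chosen after the levels were seen, was met by 4 of the 21, against 0.0953% of probe sets and 0.11% of genes (20 of 18132). These 4 were TUBB1 and the 3 of CD36. The smallest of their differences, 0.42 for TUBB1 in number 2, lies just over that value, so the count follows from the choice. The other 7 genes, with 17 probe sets, had differences between -0.20 and 0.20 and a median of -0.07; the median over all probe sets was -0.01.

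The replicate numbers were compared too, a contrast the choice of genes does not name, although the levels on all 6 arrays were known when they were chosen. By the brightest probe set of each gene 4 of the 9 genes passed a limma F test between numbers, and 3 of the 5 above background on all 6 arrays. The share set beside it, 54.1% of all probe sets above background, is by probe set and not by gene. The count is near that share and is not read as a result about these genes. The test had group as a term and was adjusted over all 49293 probe sets. By probe set 11 of the 21 passed, 3 of them from CD36 and 4 from ITGB3, against a background of 33.5% of all probe sets. Among probe sets above background on all 6 arrays 6 of 8 passed, against 54.1%. Among those above it on no array 5 of 10 passed, against 6.17%; 4 of these read the single gene ITGB3 and are not independent, and PPBP is the other, and none is read as a level. The labels do not say what a replicate number shares, and each number holds 2 arrays.

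CD36 had by far the widest span of the 9 genes between numbers. For its brightest probe set the means of numbers 1, 2 and 3 were 9.46, 7.88 and 7.23, a range of 2.23 (limma F adjusted p = 0.000525), and for the other 2 probe sets the ranges were 2.60 (limma F adjusted p = 0.000371) and 2.84 (limma F adjusted p = 0.000554). A range of at least 1 was reached by 4.7% of all probe sets, and CD36 ranked 23 of 18132 genes by it. TUBB1 had number means of 8.79, 8.11 and 8.24 (limma F adjusted p = 0.0096), with number 1 the highest as for CD36.

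ITGA2B ran the other way. Its brightest probe set had number means of 5.53, 6.21 and 7.06 (limma F adjusted p = 0.00445), lowest where CD36 was highest. The a_at probe set of GP6 had 5.69, 5.21 and 6.14 (limma F adjusted p = 0.00687) and PPBP 2.56, 2.50 and 3.15 (limma F adjusted p = 0.0129), both highest in number 3. GP9 (limma F adjusted p = 0.94), GP1BA (0.93) and both PF4 probe sets (0.38 and 0.29) did not pass. Nor did the 2 dimmer ITGA2B probe sets (limma F adjusted p = 0.299 and 0.126), the brighter GP6 probe set (0.0819) or 3 of the 7 ITGB3 probe sets (0.489, 0.894 and 0.44). Number 3 was the highest for 40.1% of all genes above background on all 6 arrays, so a shared peak there is common. The difference between genes in their number pattern was not itself tested.

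**Figure D3:**
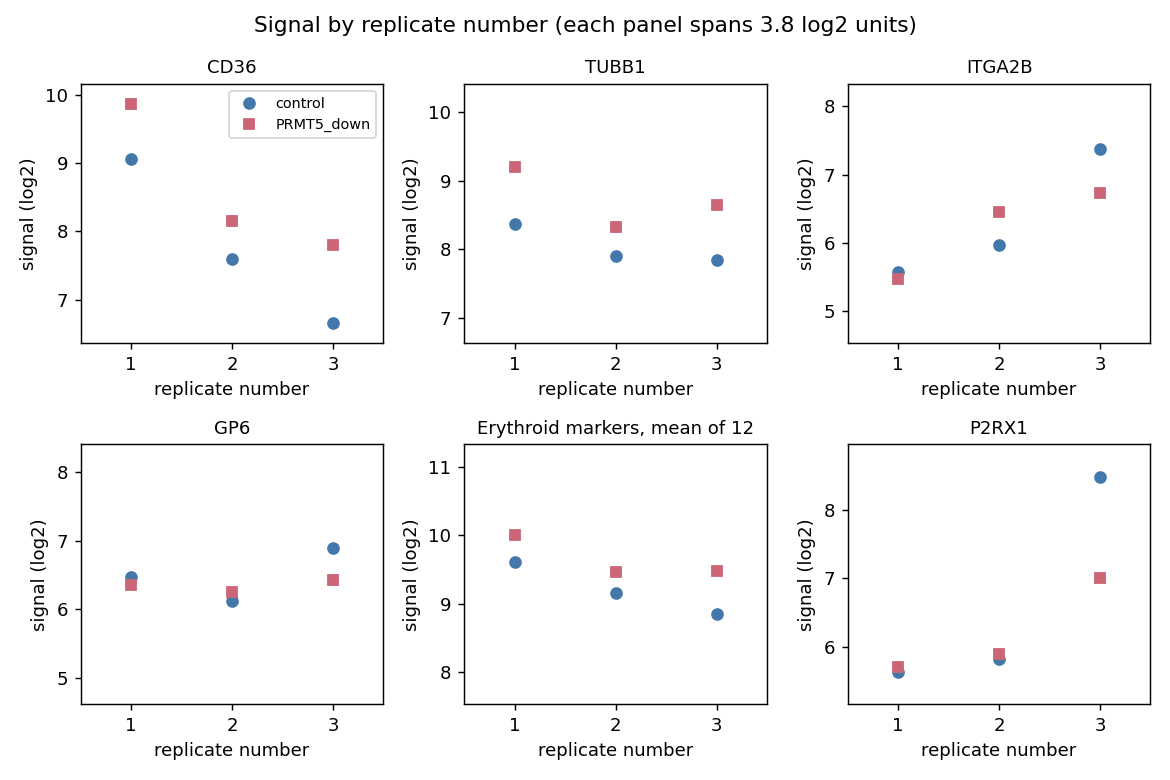
Signal (log2, vertical axis) by replicate number for the brightest probe sets of CD36, TUBB1, ITGA2B and GP6, for the mean of the 12 erythroid markers above background on all 6 arrays, and for P2RX1; circles are control and squares PRMT5_down, 1 array each, and every panel spans the same number of log2 units. CD36 and the erythroid mean are highest in number 1, ITGA2B and P2RX1 in number 3.

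Genes with the nearest profiles were sought among 10199 other genes above background on all 6 arrays, by the root mean square difference between the 6 values after each gene's own mean was taken off. For TUBB1 they were CNRIP1 at 0.11 log2 units, CA8 at 0.13, the transferrin receptor gene TFRC at 0.13, CARD16 at 0.14 and RAB8B at 0.15, where the median gene stood at 0.51. For CD36 they were KATNAL1, of a microtubule-severing family, at 0.25, the embryonic globin gene HBZ at 0.36, LINC00656 at 0.37, the malic enzyme gene ME1 at 0.38 and FAM200A at 0.42, where the median gene stood at 1.07. TUBB1 and CD36 differed from each other by 0.70. TFRC had control arrays 1 to 3 at 11.66, 11.15 and 10.79 and PRMT5_down arrays 1 to 3 at 12.21, 11.29 and 11.70. HBZ had control arrays 1 to 3 at 11.87, 11.24 and 10.27 and PRMT5_down arrays 1 to 3 at 12.56, 11.47 and 11.09. This likeness describes 6 arrays that share lentivirus and number, and carries no test.

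Beta tubulins, the isotypes that join alpha tubulin in microtubules, had differences closer to 0 than that of TUBB1. Apart from TUBB1, 7 were measured, and TUBB2A at 0.15 (SE 0.22), TUBB6 at 0.13 (SE 0.19), TUBB3 at 0.08 (SE 0.24), TUBB8 at 0.04 (SE 0.11), TUBB4A at 0.00 (SE 0.14), TUBB4B at -0.08 (SE 0.36) and TUBB at -0.14 (SE 0.14) did not pass limma. TUBB8 was under background. Within single numbers these isotypes differed by between -0.33 (TUBB4B, number 1) and 0.35 (TUBB6, number 3), where TUBB1 differed by 0.42 to 0.83. The test of TUBB1 against the other isotypes was not run.

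The paralogues of CD36, SCARB1 and SCARB2, were both above background. The HDL receptor gene SCARB1 differed by -0.24 (SE 0.19) and the lysosomal membrane gene SCARB2 by 0.15 (SE 0.22), and neither passed limma. Of 20 measured genes of fatty acid uptake and CD36 signalling, 11 were higher and 8 lower with a median of 0.01, against a median of -0.02 over all 18132 genes, and 0 passed limma. PPARA, a nuclear receptor for fatty acids, had the smallest p of them, with a difference of 0.59 (SE 0.14). The fatty acid binding protein gene FABP4, an adipocyte and macrophage gene, was under background on all arrays.

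Beyond the 9 genes, other genes of the lineage were present in part. Of 138 other megakaryocyte and platelet genes measured in 8 lists, 91 were above background on all 6 arrays and 36 on none, where 56.3% of all genes were above it on all 6. By limma 0 of the 138 were called in either direction, with 2 at an unadjusted p under 0.05 (LMO2 and the ADP receptor gene P2RY1, both higher, P2RY1 above background on 5 arrays), against 149 of 18132 genes (0.822%). With the replicate block limma called 0 of them also. In all 83 were higher and 54 lower, with a median of 0.03, while over all genes 7844 were higher and 10057 lower.

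Among transcription factors of megakaryocytes and their progenitors, 18 of 20 were above background on all 6 arrays, GATA1, GATA2, TAL1, NFE2, LYL1 and MYB with them, most of which erythroid or progenitor cells also use. The other 2, the ETS factor genes FLI1 (mean 4.50) and ERG (3.86), were above it on no array. The list also holds KLF1, an erythroid factor. Of the 20, 16 were higher and 4 lower, with a median of 0.05, and 0 passed limma. The LIM factor gene LMO2 differed by 0.43 (SE 0.17), the repressor gene GFI1B by 0.27 (SE 0.21) and the GATA1 partner gene ZFPM1 by 0.16 (SE 0.16). In numbers 1, 2 and 3 LMO2 differed by 0.23, 0.51 and 0.55. NFE2, which drives TUBB1 in megakaryocytes, had a difference of 0.05 (SE 0.12).

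Among adhesion receptors 6 of 17 were above background on all 6 arrays and 9 on none. The 17 had 12 higher and 5 lower with a median of 0.07, and 0 passed limma. PEAR1, a contact receptor of platelets, differed by 0.39 (SE 0.19), ITGB1 by 0.14 (SE 0.10) and the tetraspanin gene CD151 by -0.13 (SE 0.34). Among other integrin chains 6 of 23 were higher and 17 lower, with a median of -0.07 and 0 passing limma, ITGA5 at -0.31 (SE 0.27) the most negative of those named.

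Of 11 measured receptors for soluble agonists, 5 were above background on all 6 arrays, and these 5 passed the limma F test between numbers, as did 62 of the 91 listed platelet genes above background and 54.1% of all probe sets above it. They did not run one way, and number 3 was the highest for 49 of the 91 and for 40.1% of all genes above background. P2RX1, an ATP-gated channel of platelets, had number means of 5.67, 5.86 and 7.75 (limma F adjusted p = 0.00445) and the thromboxane receptor gene TBXA2R 7.28, 7.34 and 9.32 (limma F adjusted p = 0.000816), both highest in number 3 as ITGA2B was. The thrombin receptor gene F2R was highest in number 1, with number means of 5.96, 5.43 and 5.54 (limma F adjusted p = 0.017). The prostaglandin receptor gene PTGER3 ran from 7.52 in number 1 to 6.56 in number 3 (limma F adjusted p = 0.00597). Between PRMT5_down and control 5 of the 11 were higher and 6 lower, and 0 passed limma, with P2RX1 at -0.44 (SE 0.82). That value came from number 3, where P2RX1 differed by -1.48, against 0.08 in each of the others.

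Signalling and granule genes were split between directions. Of 23 signalling genes 12 were higher and 11 lower (median 0.01), among them RASGRP2, the activator of Rap1 in platelets, at 0.61 (SE 0.35), GNAQ at -0.27 (SE 0.21) and LAT at -0.10 (SE 0.10). RASGRP2 was higher in each number, by 0.42, 0.85 and 0.57. Of 26 alpha granule genes 13 were higher and 12 lower, with PROS1 at 0.31 (SE 0.28), VIPAS39 at -0.22 (SE 0.12) and F13A1 at -0.20 (SE 0.10). Of 18 dense granule genes 11 were higher and 7 lower, with ABCC4 at 0.18 (SE 0.17), HPS4 at -0.12 (SE 0.12) and RAB27B at -0.20 (SE 0.24). Of 17 genes of the platelet cytoskeleton 10 were higher and 7 lower, with LIMS1 at 0.29 (SE 0.21), PARVB at -0.19 (SE 0.11) and MYL9 at -0.14 (SE 0.16). Of 6 genes of thromboxane and other lipid mediators 4 were higher, with PTGS1 at 0.27 (SE 0.30) and TBXAS1 at -0.10 (SE 0.12). In each of these 5 lists 0 genes passed limma, as did 0 of all 18132 genes. Of 15 other CXC chemokines 3 were higher and 12 lower, and 0 passed.

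**Figure D4:**
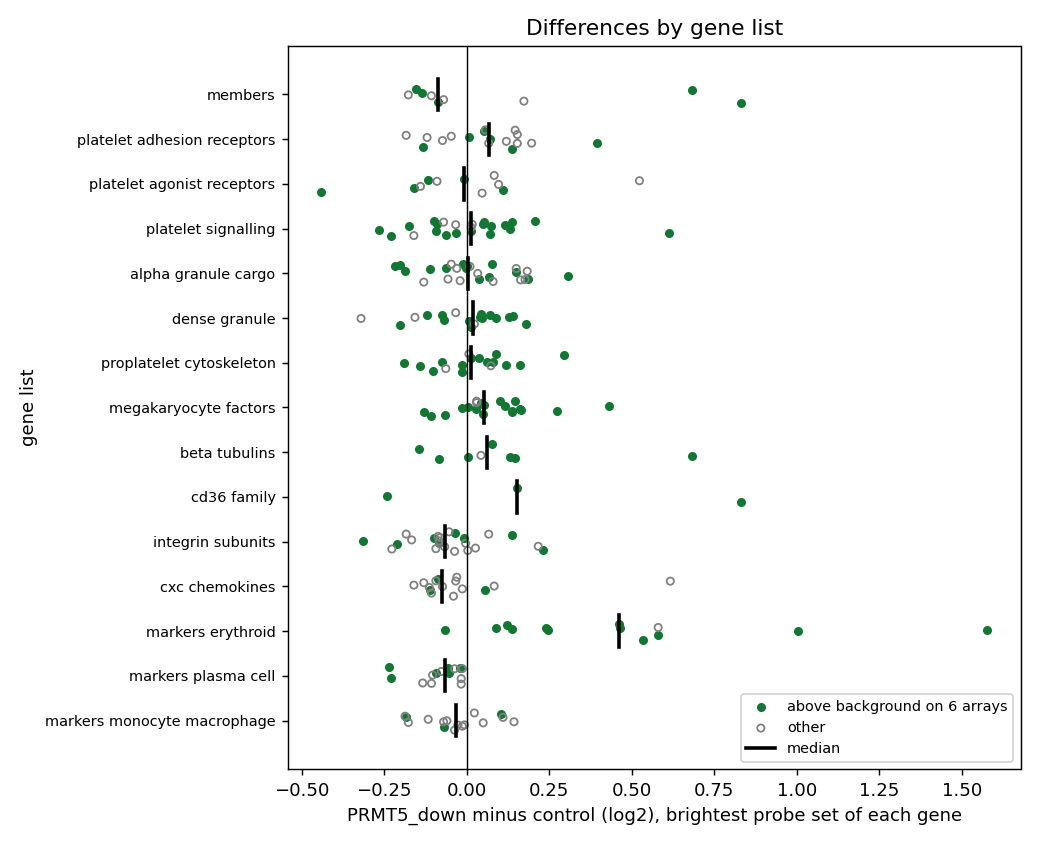
PRMT5_down minus control (log2, horizontal axis) for the genes of each list, 1 point per gene by its brightest probe set; filled points are above background on all 6 arrays, open points are not, and black bars are medians. The platelet lists have medians between -0.01 and 0.07, and the erythroid markers one of 0.46.

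Markers of other cells that carry CD36 were measured beside it. Of 13 erythroid markers measured, 12 rose above background on every array and 12 had a positive difference, with a median of 0.46 and 0 called by limma. The mean signal of the 12 above background was 9.61, 9.16 and 8.85 on control arrays 1 to 3 and 10.01, 9.46 and 9.48 on PRMT5_down arrays 1 to 3, so control replicate 1 stood above PRMT5_down replicates 2 and 3. Like CD36, it was highest in number 1 of both groups, and 9 of the 12 had their highest mean in number 1, against 31.7% of all genes above background. AHSP, the chaperone of alpha globin, differed by 1.58 (SE 0.58), the anion exchanger gene SLC4A1 by 1.00 (SE 0.36) and ALAS2 by 0.24 (SE 0.11), and none passed limma. Their part in the CD36 and TUBB1 differences was not tested.

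Of 16 monocyte and macrophage markers 3 were above background on all 6 arrays, LYZ, CD68 and, barely, CSF1R, and 12 on none, CD14, ITGAM, S100A8 and S100A9 among the latter. Of 12 endothelial markers 2 were, PECAM1 and ENG, while CDH5, TEK and CLDN5 were above it on none. Of 8 adipocyte markers 3 were above it on all 6, ADIPOQ, LIPE and PLIN4 (means 5.58, 5.30 and 6.05), and 5 on none, PLIN1, LEP and FABP4 among the latter. The monocyte list averaged 4.15 to 4.39 in control and 4.16 to 4.33 in PRMT5_down, the endothelial list 4.38 to 4.63 and 4.42 to 4.61, and the adipocyte list 4.46 to 4.58 and 4.44 to 4.61. These ranges overlapped between the groups, and the list averages lay under background. They run over all measured genes of a list, unlike the erythroid mean, so genes under background lower them. Over only the markers above background on all 6 arrays, the monocyte mean lay between 6.89 and 7.65 across the arrays. The endothelial mean lay between 5.93 and 6.56 and the adipocyte mean between 5.54 and 5.80.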

How the data were processed

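Per the submitters' processing notes the authors made the deposited values, log2 signals per probe set with 2 decimals, with RMA; the labels name no version. This method sets all arrays to one distribution, which hides a shift common to most genes. Values were used as deposited. Probe sets were named from the array's gene table, with symbols looked up by gene identifier for 44961 of 44988 probe sets with 1 symbol; 1832 had several and 2473 none, and no probe set with several symbols held one of the 9 genes.

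The 9 genes and the gene lists were chosen with earlier results of these data known. The groups were compared with limma 3.58.1 (R 4.3.3, lmFit and eBayes, Benjamini-Hochberg adjustment, threshold 0.05) over all 49293 probe sets and, for the lists, over 18132 genes by their brightest single-symbol probe set. The replicate numbers were compared by a limma F test with group as a term. Named genes were all probe sets of the 9, PRMT5, every beta tubulin and CD36 relative, up to 3 genes per list with the smallest p among those above background on all 6 arrays, the cell type markers highest over background, and the 5 nearest profiles of TUBB1 and CD36. Outside this rule, markers under background, further transcription factors, the 5 dimmer plasma cell markers, F2R, P2RY1 and NFE2 were named after their values were seen.

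Same-numbered arrays deviated together from their group means (r = 0.82, 0.72 and 0.79 for numbers 1, 2 and 3, across genes, which are not independent). Differences are therefore also given within each number. This pairing was seen in the data and is not in the labels. The planned fit has no block. Each SE and limma call between the groups is thus unpaired and holds the spread between numbers, unless a block is named. The fits were also run on simulated data with noise taken from the block fit, and nothing is concluded from that here. The number of arrays limits the precision. Gene positions in the text are those of the RefSeq promoter table.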

Additional observations from a re-analysis of the deposited data

How the results depend on the processing

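The differences of TUBB1 and of the 3 CD36 probe sets stayed positive under all 14 alternatives run for each. Among the other members 9 probe sets changed sign under some alternative, mostly when 1 array was left out. Probe sets above background on all 6 arrays numbered 1 in place of 8 with the 99th percentile of olfactory receptor genes. With the lowest 50% left out the members called between replicate numbers were 7 in place of 11, as 8 were then tested, with 1 call gained and 0 lost; quantile normalization again and trend and robust changed no member's call.

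Between PRMT5_down and control limma called 0 genes and 0 probe sets as planned. The replicate block with the lowest 50% left out called 3 genes and 3 probe sets, and the replicate block with trend and robust 3 genes and 6 probe sets, with 1 erythroid and 1 eosinophil marker among the genes under each; the cause was not tested. At an unadjusted p under 0.05 genes numbered 149 as planned, 57 without the dimmest 30%, 23 without the dimmest 50%, where fewer were tested, 230 under trend and robust, 1495 with the replicate block, 1547 with it and trend and robust, 885 with it and the lowest 50% left out, and 92 to 285 with 1 array left out. Probe sets numbered 466, and under the same alternatives 185, 80, 623, 4221, 4288, 2591 and 297 to 821. Of 184 list medians recomputed, 37 changed sign, in 14 of 23 lists.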
